A study of Homo sapiens with 9 samples.

Results

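The genes that copy the genome and supply the S phase cell cycle programme were examined in 22Rv1 cells after knockdown of CHD9. The set holds 38 genes chosen by name: the MCM2 to MCM7 helicase, the factors that load and switch it on, the polymerases, the sliding clamp and its loader, Okazaki fragment enzymes, nucleotide synthesis enzymes, chromatin assembly factors and the E2F and cyclin E regulators of S phase entry. Each symbol matched 1 of the 67071 identifiers in the count table. After the filter on low counts, 37 of the 38 were tested, among 16855 genes in all. The remaining member, E2F2, was listed at 0 in all 9 libraries.

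The libraries were poly(A) RNA sequencing libraries from 22Rv1, a human prostate carcinoma line of luminal character. CHD9, a chromatin remodelling ATPase of the chromodomain helicase family, was knocked down with 2 short hairpin RNAs, shCHD9_1 (hairpin 1) and shCHD9_2 (hairpin 2), with 3 libraries each. The control was a hairpin against GFP (shGFP), also with 3 libraries, and all cells were otherwise labelled wild type. The series comes from a study of functional m6A sites in cancers, and this experiment asks what changes in RNA when CHD9 is reduced. The labels do not say whether replicates were separate cultures, so the p-values below rest on variation among these libraries only, and it may be technical.

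Replication starts when the origin recognition complex, CDC6 and CDT1 place the MCM helicase on DNA in G1. In S phase the helicase is switched on by MCM10, CDC45 and the GINS complex, and the polymerases follow, held on DNA by the PCNA ring that the RFC complex loads. Most of these genes are transcribed around the G1/S boundary under E2F factors, and they are used as a measure of how many cells in a culture are replicating. In bulk RNA, fewer cells in S phase and less RNA per cell cannot be told apart.

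CHD9 itself had 14.8, 16.7 and 14.9 CPM (counts scaled for library size) with hairpin 1 and 18.3, 18.8 and 19.3 CPM with hairpin 2, against 22.8, 20.5 and 23.2 CPM in shGFP. All 6 knockdown libraries lay below the 3 shGFP libraries, but the fall was partial, with a log2 fold change of -0.52 with hairpin 1 and -0.24 with hairpin 2 (SE 0.07, adjusted p = 0.0053). Leaving out shGFP replicate 3 ended the hairpin 2 call (adjusted p = 0.054). The hairpins differed by -0.28 in log2 (hairpin 1 minus hairpin 2, SE 0.07, adjusted p = 0.002), but this call was lost with an offset fitted in each library for GC content and exonic length (-0.16, adjusted p = 0.0883). Library totals ran over the range 18911142 to 31968602 counts. Of 9 luminal prostate markers, 5 were higher, 1 lower and 3 not called on average, with 8 higher and 1 lower with hairpin 1, and 4 higher and 3 lower with hairpin 2. Of these, the keratin KRT8 averaged 332 ± 4.14 CPM with hairpin 1, 288 ± 6.45 with hairpin 2 and 307 ± 1.62 in shGFP (SD, n = 3 each), and the secreted protease KLK3 averaged 45.1 ± 1.46 CPM with hairpin 1, 44.7 ± 2.09 with hairpin 2 and 31.9 ± 0.978 in shGFP. Of markers of other cells, the 4 basal epithelial genes summed to at most 0.475 CPM in any library and the 5 leukocyte genes to at most 1.26 CPM. The 6 fibroblast genes summed to 10.7 ± 0.756 CPM with hairpin 1, 10.8 ± 1.03 with hairpin 2 and 7.96 ± 0.441 in shGFP, most of it COL1A1 and COL3A1, which both rose on average, while DCN and PDGFRA were near 0. LUM, the other fibroblast marker tested, fell, with 0.0602 ± 0.0338 CPM with hairpin 1, 0.0627 ± 0.0161 with hairpin 2 and 0.982 ± 0.346 in shGFP. The part of these markers in the replication gene results was not tested.

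With the CHD9 hairpins, a subset of the replication genes was lower, mostly by modest amounts, and the MCM helicase genes stayed near their control level. Whether these differences follow the CHD9 level or the hairpin used was not tested. Averaged over both hairpins, 20 of the 37 tested members fell, 2 rose (MCM4 and UHRF1) and 15 did not pass (edgeR quasi-likelihood test, adjusted p under 0.05 over all genes tested). Among all 16855 genes the same contrast called 45.7%, 23.3% lower and 22.4% higher, so the members' share of lower calls, 54.1%, stood above the background and their share of higher calls, 5.41%, below it. The members were chosen with earlier results of these data known, and all genes were not matched to them for level. The shares here and below are therefore a description and not a test. The sizes were small: the median log2 fold change of the members was -0.09, against 0.0014 for all genes, 20 of the 37 had an average change smaller than 0.1 in log2, and 6 fell by 0.3 or more. Those 6 were POLE3, CCNE2, RRM2, MCM10, CCNE1 and CDC6. All 6 knockdown libraries lay below all 3 shGFP libraries for 17 members, above them for 1 (MCM4), and overlapped them for 19, against 16.2% below and 15.5% above among all genes. The 3 hairpin 1 libraries were below the controls for 25 members and above for 1 (26.9% and 27.0% of all genes), and the 3 hairpin 2 libraries were below for 18 and above for 6 (22.7% and 21.4%).

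Hairpin 1 gave the larger changes. It lowered 22 members and raised 0, with a median log2 fold change of -0.12. Of all genes, 47.4% were called with hairpin 1, 23.5% lower and 23.9% higher. No member reached an unadjusted p under 0.05 in the upward direction in edgeR, and DESeq2 and limma also called 0 higher. Hairpin 2 lowered 14 members and raised 5 (MCM3, MCM4, MCM6, POLA1 and UHRF1), with a median of -0.04, against 35.9% of all genes called, 18.6% lower and 17.2% higher. Of these 5, MCM4 alone was called whichever library was left out. The contrasts of the hairpins with shGFP share the same control libraries and are given side by side for that reason.

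**Figure D1:**
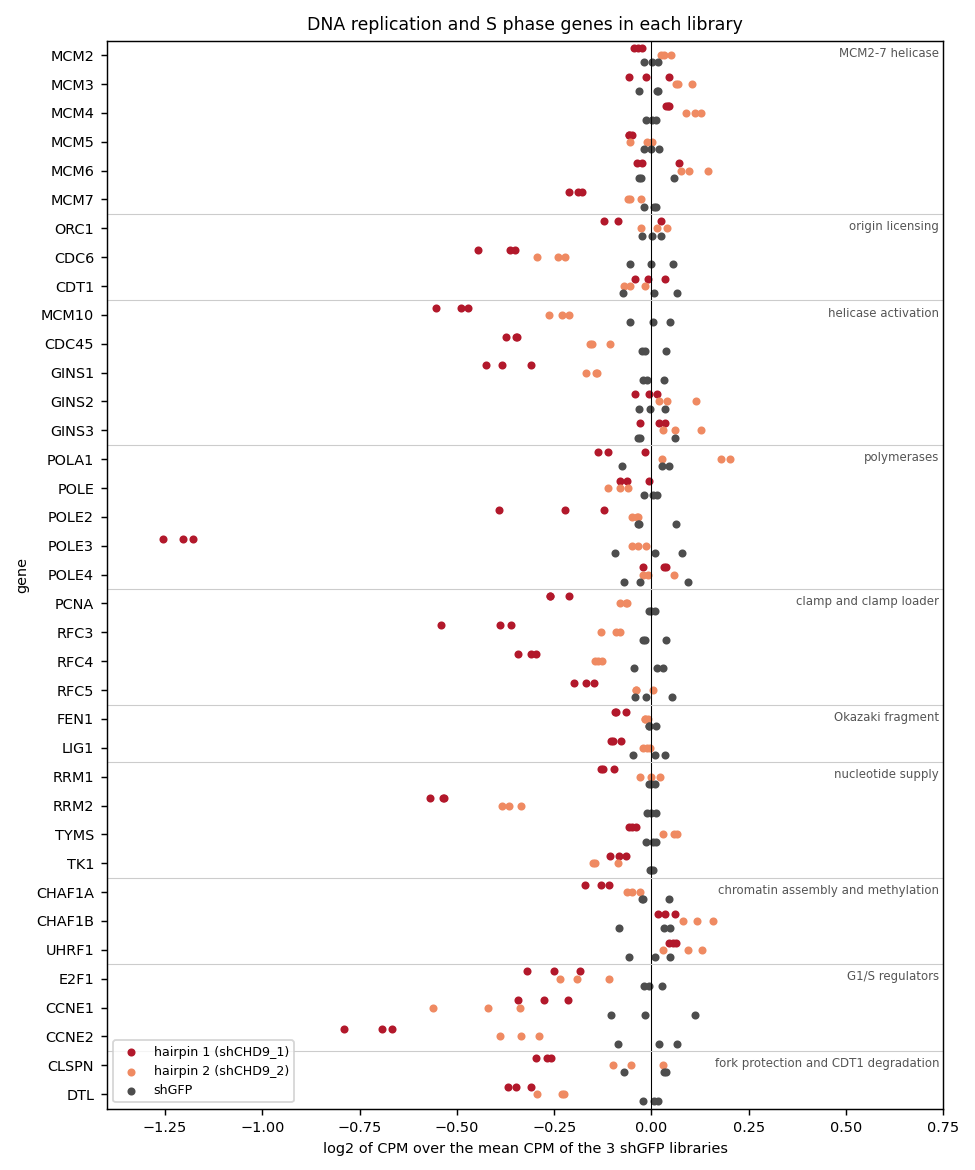
Each point is 1 library's CPM for 1 gene, as log2 over the mean of the 3 shGFP libraries; genes run down the axis by role, with hairpin 1 above hairpin 2 above shGFP in each row. The MCM helicase rows stay close to 0, all knockdown points of MCM10, RRM2, CCNE1, CCNE2, CDC6 and DTL lie left of all shGFP points, and POLE3 is far to the left with hairpin 1 alone.

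The start regions of these genes are shown because E2F and CCAAT letters are what many of them have in common and the rule by which they were chosen did not use sequence. RefSeq windows of GRCh38.p14, 250 bases before to 50 after the start, were matched for 35 of the 38 members; MCM4, MCM5 and CCNE2 had none. The E2F letters searched were TTTCCCGC, TTTGGCGC, TTTCGCGC and TTTGCCGC on both strands, and 22 of 35 members (62.9%) held at least 1, against 3.99% of 27305 genes with a window. The CCAAT letters, on both strands, were in 22 members (62.9%), against 39.7% of all genes. The letters TTTGAA and TTTAAA of the cell cycle homology region (CHR), on both strands, were in 6 members (17.1%), against 27.9% of all genes. By outcome in the average contrast, E2F letters were in 9 of the 19 members that fell and have a window. They were in 11 of the 14 that did not pass. CCAAT letters were in 15 of those 19 and 6 of those 14. CHR letters were in 6 of those 19 (31.6%, near the 27.9% of all genes) and 0 of those 14. A gene with several windows was counted if any of them held the letters. The CHR matches of CDC45 and POLE3 lie only in windows other than the first. These counts are a description of letters in a window and were given no test.

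The 160 bases just upstream of the RefSeq start are given for 4 genes that fell (RRM2, MCM10, DTL and E2F1) and for 2 that did not pass on average (GINS2, and MCM6, which was called higher with hairpin 2), to set their letters side by side. They are written 5′ to 3′ on the gene's strand, with capitals for E2F, CCAAT and CHR letters in either orientation. RRM2 is at chr2:10122579-10122738 on the plus strand, MCM10 at chr10:13161398-13161557 on the plus strand, DTL at chr1:212035588-212035747 on the plus strand, E2F1 at chr20:33686386-33686545 on the minus strand, MCM6 at chr2:135876444-135876603 on the minus strand and GINS2 at chr16:85688955-85689114 on the minus strand.
RRM2: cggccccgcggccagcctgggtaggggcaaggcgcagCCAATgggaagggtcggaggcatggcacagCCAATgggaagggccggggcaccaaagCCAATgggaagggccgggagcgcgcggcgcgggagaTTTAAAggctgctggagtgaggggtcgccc
MCM10: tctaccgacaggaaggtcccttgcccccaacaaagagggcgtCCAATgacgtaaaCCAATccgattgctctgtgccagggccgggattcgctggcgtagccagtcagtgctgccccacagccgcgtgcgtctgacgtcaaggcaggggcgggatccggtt
DTL: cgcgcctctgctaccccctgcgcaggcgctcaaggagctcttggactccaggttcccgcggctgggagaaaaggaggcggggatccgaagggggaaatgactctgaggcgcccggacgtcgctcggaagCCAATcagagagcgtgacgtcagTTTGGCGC
E2F1: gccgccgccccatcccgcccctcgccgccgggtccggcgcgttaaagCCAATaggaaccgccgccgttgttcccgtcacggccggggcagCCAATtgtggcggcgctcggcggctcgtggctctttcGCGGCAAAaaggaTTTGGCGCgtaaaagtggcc
MCM6: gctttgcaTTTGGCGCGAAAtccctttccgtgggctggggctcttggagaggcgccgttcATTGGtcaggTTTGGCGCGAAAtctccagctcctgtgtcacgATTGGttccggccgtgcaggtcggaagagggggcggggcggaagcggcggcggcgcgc
GINS2: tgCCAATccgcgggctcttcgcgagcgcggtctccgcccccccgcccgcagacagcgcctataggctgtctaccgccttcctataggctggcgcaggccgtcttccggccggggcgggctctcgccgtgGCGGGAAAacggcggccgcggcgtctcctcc
RRM2 carried 3 CCAAT boxes and 1 CHR match and no E2F letters here, and MCM10 carried 2 CCAAT boxes alone. DTL had 1 E2F match at the last bases before the start and 1 CCAAT box. E2F1 had 2 of each. MCM6 had 4 E2F matches that overlap in pairs, because TTTGGCGCGAAA reads as an E2F match on each strand, and 2 CCAAT boxes. GINS2 had 1 of each. E2F letters stood in front of genes with and without a called average change.

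The MCM2 to MCM7 genes encode the hexameric ring that unwinds DNA. Of the 6, 1 fell (MCM7), 1 rose (MCM4) and 4 did not pass in the average contrast. The shares, 16.7% lower and 16.7% higher, lay near the 23.3% and 22.4% of all genes. MCM7 (chr7:100092728-100101940, hg38) had 751, 733 and 744 CPM with hairpin 1 and 834, 817 and 814 with hairpin 2, against 854, 856 and 838 in shGFP. Every knockdown library was below every shGFP library, and the average log2 fold change was -0.12 (SE 0.02, adjusted p = 3e-07), most of it from hairpin 1 (-0.19) rather than hairpin 2 (-0.05, adjusted p = 0.09). MCM4 had 651, 654 and 656 CPM with hairpin 1 and 675, 686 and 694 with hairpin 2, against 641, 629 and 636 in shGFP. It was the only member with all 6 knockdown libraries above the controls, by an average of 0.08 in log2 (SE 0.02, adjusted p = 0.0011).

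The other helicase subunits sat within a few percent of the control. MCM2 had 523, 519 and 527 CPM with hairpin 1 and 545, 555 and 549 with hairpin 2, against 536, 543 and 529 in shGFP. Hairpin 1 lay below the controls and hairpin 2 above them, and the average was 0.00 (SE 0.02). MCM3 had 170, 176 and 183 CPM with hairpin 1 and 185, 186 and 191 with hairpin 2, against 174, 179 and 179 in shGFP; it rose with hairpin 2 (by 0.08 in log2, SE 0.03, adjusted p = 0.032), a call lost without shGFP replicate 1 or without shCHD9_2 replicate 2 or 3 (adjusted p 0.0522 to 0.152). MCM6, the least abundant subunit per length, had 110, 111 and 118 CPM with hairpin 1 and 119, 120 and 125 with hairpin 2, against 110, 110 and 117 in shGFP. It rose with hairpin 2 (0.10, SE 0.03, adjusted p = 0.013), and this was lost without shGFP replicate 1 or 2 or shCHD9_2 replicate 3 (adjusted p 0.0633 to 0.0755). MCM5 was not called, with log2 fold changes of -0.05 with hairpin 1 and -0.02 with hairpin 2. With the GC and length offset, MCM2 (-0.06) and MCM5 (-0.11) were called lower and MCM6 (0.14) higher. Per length, MCM7 made up 35.4% ± 0.393 of the summed level of MCM2 to MCM7 in TPM (counts per exonic length, scaled within a library) with hairpin 1, 36.6% ± 0.574 with hairpin 2 and 38.5% ± 0.288 in shGFP (SD, n = 3). MCM4 made up 19.6% ± 0.147 with hairpin 1, 19.2% ± 0.220 with hairpin 2 and 18.1% ± 0.193 in shGFP. Antisense or opposite-strand genes overlap 22.7% of the MCM2 exons and 8.94% of the MCM7 exons, and the strand setting of the counting is not given in the sources used here, so reads of such pairs cannot be told apart.

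**Figure D2:**
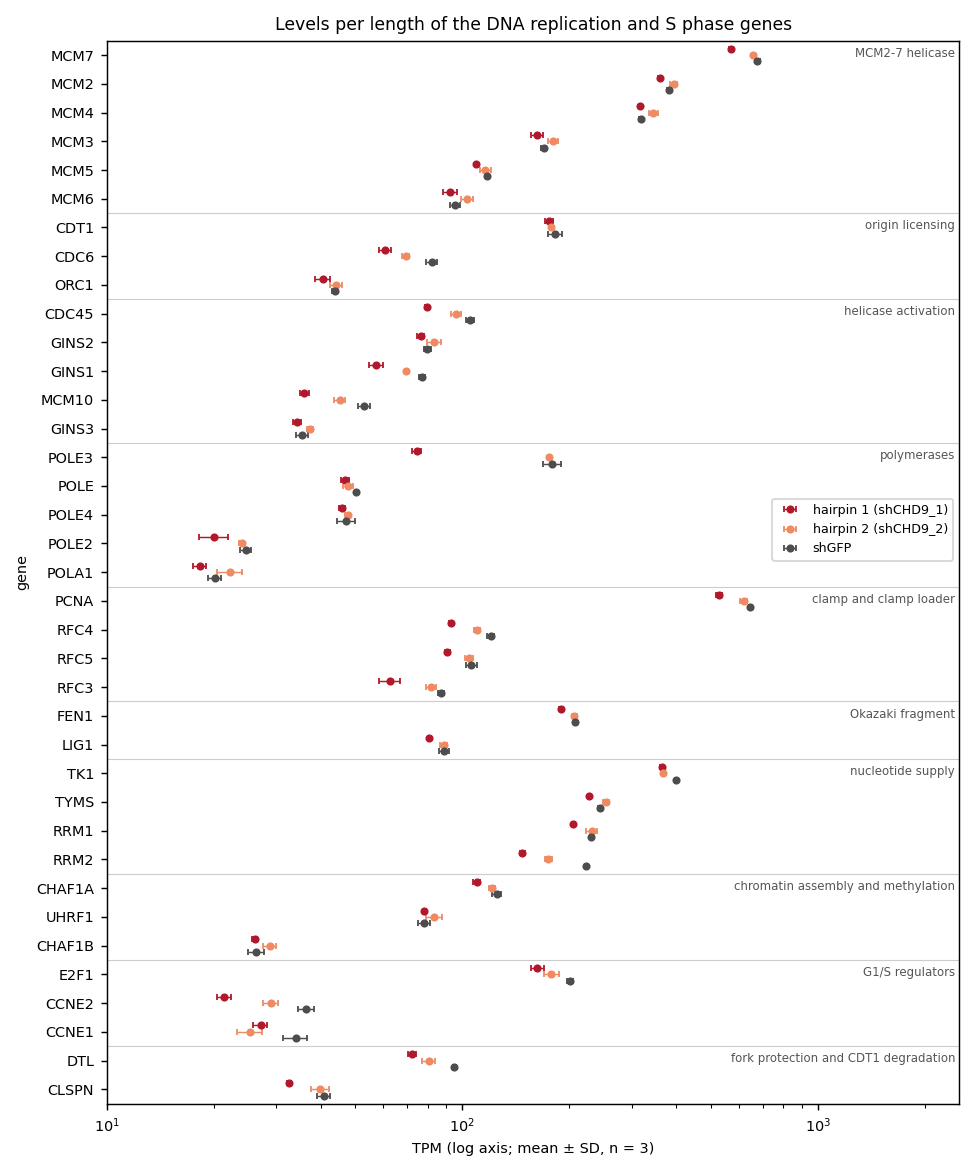
Mean TPM on a log axis for each member, with SD over 3 libraries as whiskers, ordered by abundance within each role. MCM7 and PCNA are the most abundant, POLA1, POLE2, CCNE1, CCNE2 and CHAF1B the least, and the gaps between groups are small beside the gaps between genes.

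Among the 3 origin licensing members, only CDC6 fell on average (33.3%, against 23.3% of all genes). CDC6, the ATPase that helps load the helicase (chr17:40287633-40304657), had 95.9, 102 and 102 CPM with hairpin 1 and 112, 107 and 111 with hairpin 2, against 130, 126 and 136 in shGFP. The groups did not overlap, and CDC6 was at 0.766 times the shGFP level with hairpin 1 and 0.839 times with hairpin 2 (average log2 fold change -0.32, SE 0.03, adjusted p = 1.1e-14). CDT1, the licensing factor that is destroyed once S phase begins, had 179, 173 and 169 CPM with hairpin 1 and 172, 167 and 166 with hairpin 2, against 165, 182 and 175 in shGFP. ORC1, a subunit of the origin recognition complex and the least abundant of the 3, had 40.2, 37.3 and 36.3 CPM with hairpin 1 and 38.8, 39.9 and 40.7 with hairpin 2, against 38.9, 40.2 and 39.5 in shGFP. Both overlapped the controls, with average log2 fold changes of -0.03 and intervals of -0.08 to 0.02 for CDT1 and -0.12 to 0.06 for ORC1. CDT1 depended on the correction: with the GC and length offset its average change was -0.18 and was called lower.

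The factors that turn the loaded helicase into a moving fork fell for 3 of 5 genes (MCM10, CDC45 and GINS1), in the average contrast and with each hairpin. Of all genes, 23.3% fell on average, 23.5% with hairpin 1 and 18.6% with hairpin 2. MCM10 (chr10:13161554-13211104), which opens the double hexamer, had 58.9, 56.3 and 59.6 CPM with hairpin 1 and 68.8, 71.3 and 70.4 with hairpin 2, against 85.4, 79.6 and 82.9 in shGFP. The 3 groups were fully separated, with hairpin 1 lowest, and the average log2 fold change was -0.37 (SE 0.03, adjusted p = 1.1e-14). CDC45, the most abundant of this group per length, had 67.5, 67.4 and 66.2 CPM with hairpin 1 and 76.9, 79.7 and 77.2 with hairpin 2, against 84.4, 88.1 and 84.8 in shGFP. It too was fully separated (-0.25, SE 0.03, adjusted p = 1.6e-09). GINS1, a GINS subunit, averaged 69.3 ± 2.86 CPM with hairpin 1, 80.7 ± 0.894 with hairpin 2 and 89.6 ± 1.76 in shGFP (SD, n = 3), a fall of 0.26 in log2 on average and of 0.17 with the GC and length offset. Its partners GINS2 and GINS3 did not pass. GINS3, the least abundant, had 50.6, 52.9 and 52.4 CPM with hairpin 1 and 56.5, 53.9 and 52.7 with hairpin 2, against 50.4, 53.9 and 50.7 in shGFP, with 10.9% of its exonic bases under an antisense gene. GINS2 differed by 0.02 (interval -0.04 to 0.09).

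Of the polymerase genes, POLE3 gave the widest gap between the hairpins of any member. POLE3 (chr9:113407235-113410672) encodes a histone-fold accessory subunit of polymerase epsilon that is also found in a chromatin remodelling complex. It had 57.9, 55.9 and 59.0 CPM with hairpin 1 and 132, 129 and 130 with hairpin 2, against 141, 125 and 134 in shGFP. Hairpin 1 was far below both other groups, at 0.432 times shGFP (log2 fold change -1.21, SE 0.04, adjusted p = 3.7e-38), and hairpin 2 overlapped the controls (-0.03, SE 0.03, adjusted p = 0.52). The average of -0.62 therefore describes neither hairpin. POLE4, the partner of POLE3 in the same complex, averaged 29.4 ± 0.657 CPM with hairpin 1, 29.2 ± 0.874 with hairpin 2 and 29.04 ± 1.74 in shGFP and was not called in any contrast.

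The catalytic subunit POLE was slightly lower on average (-0.07, SE 0.02, adjusted p = 0.014), a call lost without shGFP replicate 3 or shCHD9_1 replicate 2 (adjusted p 0.0516 and 0.0721), and was at -0.18 with the GC and length offset. POLE2, its second subunit, fell with hairpin 1 (-0.24, SE 0.07, adjusted p = 0.0048) but not without shCHD9_1 replicate 2 (adjusted p = 0.082) or with the offset (-0.03), and the average of -0.14 did not pass (adjusted p = 0.056). POLA1, the catalytic subunit that works with primase and the least abundant of the 5, had 36.1, 33.8 and 33.2 CPM with hairpin 1 and 37.2, 42.0 and 41.4 with hairpin 2, against 37.2, 34.7 and 37.7 in shGFP. The groups overlapped. POLA1 rose with hairpin 2 alone (0.14, SE 0.05, adjusted p = 0.037), a call lost without shGFP replicate 2 or shCHD9_2 replicate 2 or 3 (adjusted p 0.114 to 0.216).

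All 4 genes of the sliding clamp and its loader fell on average, against 23.3% of all genes. PCNA, the ring that tethers polymerases, had 227, 235 and 227 CPM with hairpin 1 and 257, 260 and 260 with hairpin 2, against 272, 274 and 271 in shGFP. No library crossed between groups, and the change was -0.24 with hairpin 1 (SE 0.03, adjusted p = 3.3e-12) and -0.07 with hairpin 2 (SE 0.03, adjusted p = 0.029). The hairpin 2 call was lost when any 1 of 5 libraries was left out: shGFP replicate 1 or 2, shCHD9_1 replicate 1, or shCHD9_2 replicate 1 or 2 (adjusted p 0.0517 to 0.0869). RFC3, a loader subunit and the least abundant of the 4 per length, had 49.4, 54.9 and 55.9 CPM with hairpin 1 and 65.6, 67.9 and 67.4 with hairpin 2, against 70.8, 71.0 and 73.7 in shGFP. It fell to 0.744 times shGFP with hairpin 1 (-0.43, SE 0.04, adjusted p = 3.4e-13), and its hairpin 2 call (-0.10, adjusted p = 0.048) was lost whichever of the 9 libraries was left out (adjusted p 0.0504 to 0.194). RFC4 fell by 0.23 on average and RFC5 by 0.10, the RFC5 call being lost without shGFP replicate 1 (adjusted p = 0.112). The GC and length offset moved the averages of PCNA to -0.10 and of RFC3 to -0.15.

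The flap endonuclease FEN1 and the ligase LIG1, which finish Okazaki fragments, did not pass on average (-0.05 each). FEN1 had 138, 141 and 138 CPM with hairpin 1 and 146, 146 and 146 with hairpin 2, against 147, 147 and 149 in shGFP. LIG1 had 159, 156 and 156 CPM with hairpin 1 and 165, 166 and 167 with hairpin 2, against 169, 172 and 162 in shGFP. Each fell by less than 0.1 in log2 with hairpin 1 (adjusted p = 0.018 for FEN1 and 0.0067 for LIG1) and lay within 0.02 of the control with hairpin 2. The FEN1 call was lost without shGFP replicate 3 or shCHD9_1 replicate 1 or 3 (adjusted p 0.0578 to 0.0663), and the LIG1 call without shGFP replicate 2 (adjusted p = 0.0552). With the GC and length offset the average fall was called for FEN1 (-0.08) and LIG1 (-0.14), and for LIG1 also without shGFP replicate 3.

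Ribonucleotide reductase makes the deoxynucleotides for DNA synthesis. Its small subunit RRM2 fell clearly with both hairpins, while the large subunit RRM1 fell slightly with hairpin 1 alone. RRM2 (chr2:10120698-10131419) had 229, 235 and 235 CPM with hairpin 1 and 264, 270 and 261 with hairpin 2, against 338, 340 and 343 in shGFP. The 3 groups were separated by gaps wider than the spread within any of them, and RRM2 was at 0.685 times shGFP with hairpin 1 and 0.779 times with hairpin 2 (average log2 fold change -0.45, SE 0.02, adjusted p = 1.1e-27). Exons of AC007240.1 overlap 20.2% of its exonic bases on the same strand. RRM1 averaged 254 ± 3.05 CPM with hairpin 1, 275 ± 4.98 with hairpin 2 and 276 ± 1.37 in shGFP. Its average change of -0.06 passed (adjusted p = 0.023), but was lost without any 1 of 5 libraries (shGFP replicate 1, 2 or 3, or shCHD9_1 replicate 2 or 3, adjusted p 0.0504 to 0.0789) and turned to 0.02 with the GC and length offset. With hairpin 1, RRM1 was called lower (-0.12, SE 0.03, adjusted p = 0.00012), and with hairpin 2 it was not called (-0.003). The hairpin 1 call held whichever library was left out. It was lost with the GC and length offset (-0.02) and against a minimum fold of 1.2. The ratio of RRM2 to RRM1 TPM was 0.719 ± 0.0186 with hairpin 1, 0.755 ± 0.0219 with hairpin 2 and 0.968 ± 0.00292 in shGFP (SD, n = 3).

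The thymidylate genes differed from RRM2. TYMS, which makes thymidylate, had 168, 166 and 166 CPM with hairpin 1 and 180, 176 and 180 with hairpin 2, against 174, 171 and 173 in shGFP. Hairpin 1 lay below the controls and hairpin 2 above them by about the same small amount, and the average was 0.00 (SE 0.02). Of the TYMS exonic bases, 39.1% overlap ENOSF1 on the other strand, so the counts may hold reads of both. TK1, the salvage kinase and the most abundant of this group per length, had 204, 201 and 198 CPM with hairpin 1 and 201, 192 and 193 with hairpin 2, against 213, 214 and 213 in shGFP. All knockdown libraries were below the controls (-0.11 on average, SE 0.02, adjusted p = 0.00015; -0.21 with the offset), and the hairpin 1 call was lost without shCHD9_1 replicate 3 (adjusted p = 0.061).

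**Figure D3:**
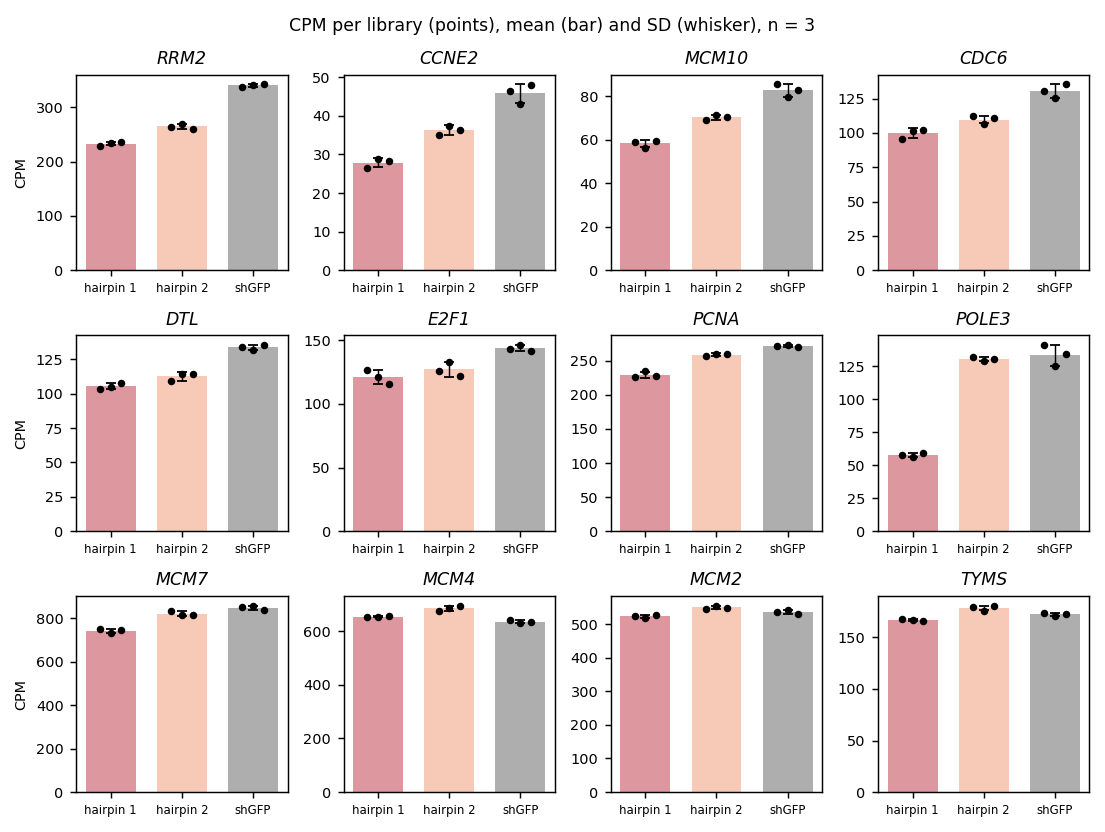
CPM of 12 members in each library (points) with the group mean (bar, from 0) and SD (whisker), hairpin 1 and hairpin 2 left of shGFP. RRM2, CCNE2, MCM10 and CDC6 step down with both hairpins, POLE3 with hairpin 1 alone, and MCM4, MCM2 and TYMS stay close to the control bar.

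Of the chromatin assembly and maintenance methylation genes, 1 fell, 1 rose and 1 did not pass. These are shares of 33.3% each way, against 23.3% lower and 22.4% higher among all genes. CHAF1A, the large subunit of the histone chaperone CAF-1 and the most abundant of the group per length, had 143, 137 and 141 CPM with hairpin 1 and 149, 151 and 147 with hairpin 2, against 151, 159 and 151 in shGFP. It fell by 0.09 on average (SE 0.03, adjusted p = 0.0031), a call lost without shGFP replicate 2 (adjusted p = 0.0632), and by 0.14 with the offset. CHAF1B, its partner and the least abundant, had 39.0, 40.3 and 39.5 CPM with hairpin 1 and 40.8, 41.9 and 43.1 with hairpin 2, against 39.9, 39.5 and 36.4 in shGFP, and did not pass (0.08, SE 0.04). UHRF1, which recruits the maintenance methyltransferase to hemimethylated DNA, had 119, 120 and 119 CPM with hairpin 1 and 117, 123 and 126 with hairpin 2, against 119, 116 and 110 in shGFP. The groups overlapped, and its average rise of 0.07 (SE 0.03, adjusted p = 0.039) was lost when any 1 of 6 libraries was left out (shGFP replicate 2 or 3, shCHD9_1 replicate 2 or 3, shCHD9_2 replicate 2 or 3, adjusted p 0.057 to 0.341) and with the offset (0.01).

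The 3 regulators of S phase entry that had counts, E2F1, CCNE1 and CCNE2, fell with each hairpin. Of all genes, 23.5% fell with hairpin 1 and 18.6% with hairpin 2. CCNE2 and CCNE1 are the E cyclins that activate CDK2 at the G1/S boundary. CCNE2 had 26.5, 28.9 and 28.3 CPM with hairpin 1 and 35.0, 37.5 and 36.3 with hairpin 2, against 46.4, 43.2 and 47.9 in shGFP. It was fully separated in the order hairpin 1, hairpin 2, shGFP (average log2 fold change -0.53, SE 0.05, adjusted p = 1.5e-15; -0.35 with the offset), although 37.0% of its exonic bases overlap INTS8 on the other strand. CCNE1 (chr19:29811898-29824308) had 20.5, 19.6 and 21.4 CPM with hairpin 1 and 18.5, 16.8 and 19.6 with hairpin 2, against 26.8, 23.1 and 24.6 in shGFP. Here the hairpin 2 libraries were not above those of hairpin 1, and the change was -0.27 with hairpin 1 (SE 0.07, adjusted p = 0.00096) and -0.44 with hairpin 2 (SE 0.07, adjusted p = 4.5e-07).

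E2F1, the transcription factor that drives many of these genes (chr20:33675683-33686404), had 126, 121 and 115 CPM with hairpin 1 and 126, 133 and 122 with hairpin 2, against 143, 146 and 142 in shGFP. The hairpins overlapped each other and neither reached the controls (average -0.21, SE 0.03, adjusted p = 4.5e-09; -0.33 with the offset). E2F2, a related activator, had 0 counts in every library, which allows up to 3 counts, or 0.0938 to 0.159 CPM across the libraries, as counting error alone. Whether E2F2 RNA was absent or the gene was not counted cannot be told from the table.

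DTL, the substrate receptor that marks CDT1 for destruction at replication forks (chr1:212035553-212107400), had 104, 105 and 108 CPM with hairpin 1 and 109, 114 and 115 with hairpin 2, against 134, 132 and 135 in shGFP. Both hairpins were clear of the controls (average -0.30, SE 0.03, adjusted p = 3.3e-14). The RNA of its substrate CDT1 was not called, except with the GC and length offset (-0.18). CDT1 protein, on which DTL acts, was not measured here. CLSPN, the fork protection and checkpoint adaptor, had 52.4, 52.8 and 51.5 CPM with hairpin 1 and 59.0, 64.5 and 60.9 with hairpin 2, against 64.8, 60.2 and 64.6 in shGFP. It fell with hairpin 1 (-0.27, SE 0.04, adjusted p = 3.1e-07) and overlapped the controls with hairpin 2 (-0.04, SE 0.04, adjusted p = 0.56).

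Summed over all members, the set had 5679 ± 17.6 CPM with hairpin 1, 6144 ± 26.9 with hairpin 2 and 6326 ± 10.0 in shGFP (SD, n = 3). By role, the summed CPM of the MCM helicase was at 0.957 times shGFP with hairpin 1 and 1.02 times with hairpin 2. The ratios for hairpin 1 and hairpin 2 were 0.834 and 0.939 for helicase activation, 0.831 and 0.947 for the clamp and loader, 0.853 and 0.912 for nucleotide supply, and 0.789 and 0.847 for the G1/S regulators. The polymerase sum was at 0.806 times shGFP with hairpin 1 and 0.971 times with hairpin 2, and POLE3 made up 75.9 CPM of the 89.0 CPM by which the hairpin 1 sum was below the shGFP sum. Chromatin assembly genes were at 0.973 times shGFP with hairpin 1 and 1.02 times with hairpin 2.

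**Figure D4:**
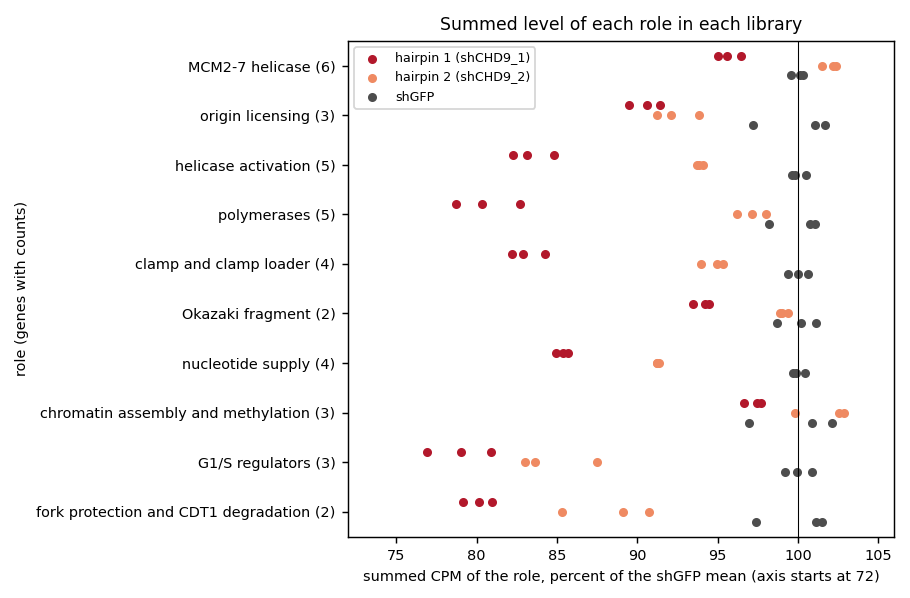
Summed CPM of each role in each library as percent of the shGFP mean, on an axis that starts at 72; hairpin 1 is drawn above hairpin 2 and shGFP. Origin licensing, helicase activation, polymerases, clamp and loader, nucleotide supply, G1/S regulators and fork protection lie left of shGFP with both hairpins, the polymerases narrowly with hairpin 2. The Okazaki fragment sum overlaps shGFP with hairpin 2, and the chromatin assembly sum overlaps it with both hairpins. The helicase sum is left with hairpin 1 and right with hairpin 2.

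The hairpins were then compared directly, in the same fit of all 9 libraries; the control libraries enter this contrast only through the filter, the scaling and the estimate of the spread. In hairpin 1 minus hairpin 2, 24 of 37 members were lower and 0 higher, with a median log2 difference of -0.09, against 29.5% of all genes called, 13.8% lower and 15.7% higher. This was not particular to the members. Of the 25 G2 and mitosis genes described below, 21 were lower (84%) and 0 higher, with a median of -0.22. Of the 88 tested genes of the wider list below, 39 were lower (44.3%) and 11 higher. At an unadjusted p under 0.05, edgeR called 1 member higher, CCNE1, and DESeq2 and limma called 0 after adjustment; CCNE1 was called without shCHD9_2 replicate 3. After POLE3 (-1.18, SE 0.04), the widest differences were CCNE2 (-0.38, SE 0.06), RFC3 (-0.32, SE 0.04), MCM10 (-0.27, SE 0.04) and CLSPN (-0.24, SE 0.04). Of the 24, 4 had estimates of opposite sign against shGFP: MCM2, MCM3, POLA1 and TYMS. POLA1 differed by -0.23 (SE 0.05, adjusted p = 0.00058) and TYMS by -0.10 (SE 0.03, adjusted p = 0.0042). The smaller differences depended on single libraries. Without shCHD9_1 replicate 2, 8 calls were lost (CHAF1A, DTL, LIG1, MCM2, MCM3, MCM4, MCM6 and POLE2), leaving 16. Of these, 6 were also lost without shCHD9_2 replicate 2 (not MCM3 or MCM6) and 6 without shCHD9_2 replicate 3 (not CHAF1A or MCM2), with adjusted p from 0.0506 to 0.272 over such losses. With the GC and length offset, the calls of DTL, MCM6 and POLE2 were lost and those of E2F1, FEN1, GINS2, MCM5 and UHRF1 gained, for 26 lower in all. Of the 6 largest average falls, only CCNE1 was not lower with hairpin 1 than with hairpin 2 (0.17, SE 0.07, adjusted p = 0.065).

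**Figure D5:**
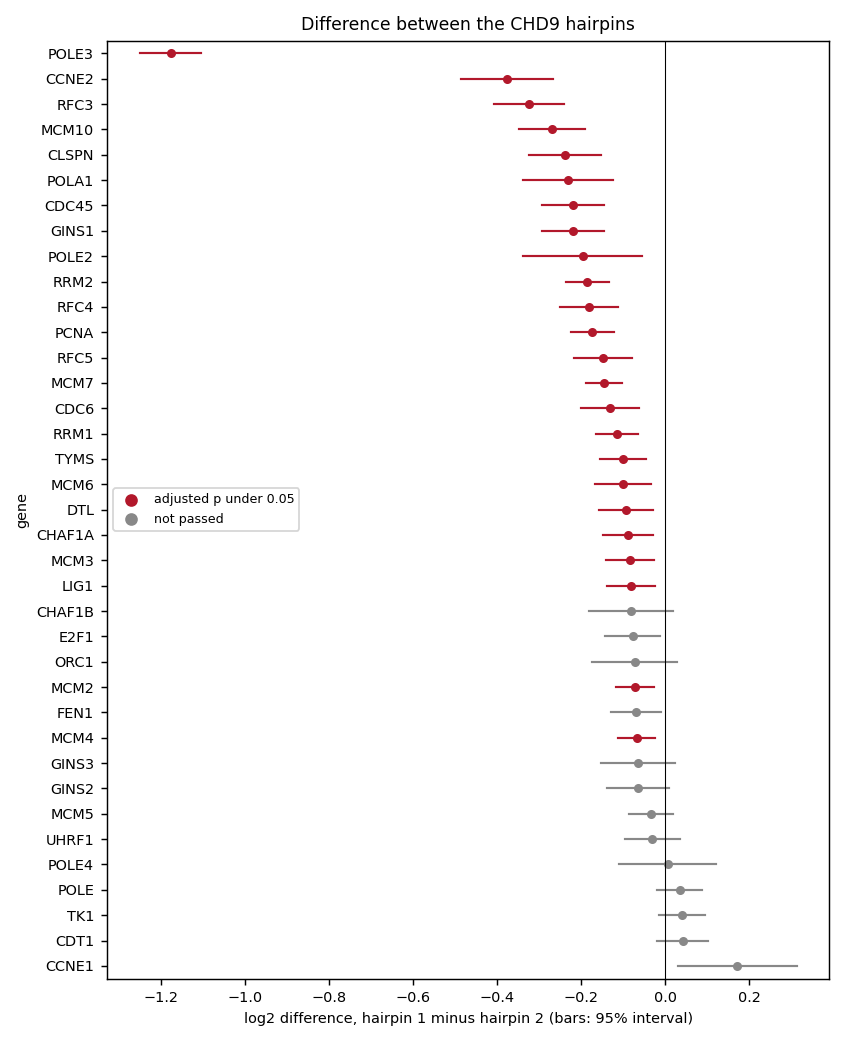
Log2 difference of hairpin 1 minus hairpin 2 for each tested member, with 95% intervals as bars and red for adjusted p under 0.05. All red points lie left of 0, POLE3 far from the rest, and CCNE1 is the point farthest to the right, with its interval above 0 and in grey.

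Other genes of the replication pathway, a list of 90, were set beside the members. Of 88 tested, 40 fell (45.5%, against 23.3% of all genes), 10 rose (11.4%, against 22.4%) and 38 did not pass in the average contrast. The median log2 fold change was -0.08. With the GC and length offset 29 fell and 17 rose, against 3828 lower and 3517 higher among all 16855 genes. ASF1B and CCND2 had too few counts for the test. Hairpin 1 lowered 43 (48.9%, against 23.5% of all genes) and raised 12 (13.6%, against 23.9%). Hairpin 2 lowered 23 (26.1%, against 18.6%) and raised 11 (12.5%, against 17.2%). The strongest by p were CCND1, CDC25A and TOPBP1, which fell, and DNMT1, which rose. CDC25A, the phosphatase that activates CDK2, had 80.3, 81.8 and 78.3 CPM with hairpin 1 and 78.7, 80.3 and 81.6 with hairpin 2, against 114, 110 and 108 in shGFP. The hairpins were alike in range and clear of the controls (-0.47 on average, SE 0.03, adjusted p = 3.9e-21). CCND1, the D cyclin, had 2859, 2881 and 2816 CPM with hairpin 1 and 2745, 2722 and 2732 with hairpin 2, against 3697, 3724 and 3719 in shGFP (-0.41, SE 0.02, adjusted p = 1.5e-31). TOPBP1, which activates the helicase and the ATR kinase, had 88.0, 92.3 and 93.8 CPM with hairpin 1 and 108, 110 and 108 with hairpin 2, against 130, 133 and 138 in shGFP, and fell by 0.43 on average (SE 0.03). DNMT1, the maintenance methyltransferase that UHRF1 guides, had 279, 275 and 274 CPM with hairpin 1 and 294, 298 and 309 with hairpin 2, against 237, 238 and 235 in shGFP. It rose by 0.28 on average (SE 0.02, adjusted p = 7.9e-17), with all 6 libraries above the controls.

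Of the 9 helicase activators on that list, 7 fell and 0 rose, with a median log2 fold change of -0.21. Of its 9 origin recognition and licensing genes, 3 fell (33.3%, against 23.3% of all genes), the lowest at -0.32, and 0 rose. Among its clamp, loader and single-strand binding genes 7 of 9 fell, and among its 19 tested G1/S regulators 6 fell and 5 rose, shares of 31.6% and 26.3% that lie near the 23.3% and 22.4% of all genes. A list of 25 G2 and mitosis genes did not follow a single direction: 11 fell, 6 rose and 8 did not pass on average, or 7 and 6 with the GC and length offset, against 23.3% lower and 22.4% higher among all genes. With hairpin 1, 16 of these 25 were lower (64.0%, against 23.5% of all genes) and 2 higher, and with hairpin 2, 5 were lower, a share near the 18.6% of all genes, and 9 higher (36.0%, against 17.2%). CENPE, a mitotic kinesin, had 44.5, 44.0 and 41.7 CPM with hairpin 1 and 58.5, 64.5 and 60.1 with hairpin 2, against 99.0, 93.2 and 102 in shGFP (-0.93, SE 0.04, adjusted p = 3.1e-33). HMMR, a spindle protein, fell by 0.69 (SE 0.03). ANLN, which organises the cytokinetic ring, had 112, 115 and 116 CPM with hairpin 1 and 138, 145 and 146 with hairpin 2, against 82.2, 85.7 and 82.7 in shGFP (0.61, SE 0.03, adjusted p = 2e-27). MKI67, the proliferation marker Ki-67, rose by 0.24 (SE 0.02, adjusted p = 1.1e-14) and was above the controls in all 6 knockdown libraries.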

How the data were processed

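Gene counts for 9 libraries (3 with shCHD9_1, 3 with shCHD9_2, 3 with shGFP) were used as deposited by the authors, as whole-number counts per Ensembl gene with no normalization. Per the submitters' processing notes, Trim Galore, STAR, DESeq2 and the hg38 build were used. Versions, the counter, strandedness and annotation are not given in the sources. Library totals were 18911142 to 31968602 counts.

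Of 67071 identifiers, 60704 had a symbol and 58541 matched GENCODE 29; all 38 members matched 1 row each, 37 of them tested. Genes were filtered with filterByExpr (minimum count 10), normalized with TMM and fitted in edgeR 4.0.16 (R 4.3.3) by a robust quasi-likelihood model with 1 mean per group and all 9 libraries in 1 fit. Contrasts were the average of both hairpins minus shGFP, each hairpin minus shGFP, and hairpin 1 minus hairpin 2. P-values were adjusted by Benjamini-Hochberg over 16855 genes, with calls at 0.05; intervals are the estimate ± 1.96 SE (95%). CPM use TMM library sizes and compare libraries. TPM were computed from GENCODE 29 exonic lengths and compare genes. Gene coordinates are from GENCODE 29. Pseudogene copies of 8 members had at most 0.0111 CPM in sum. The code was tested on simulated data.

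Alternatives were DESeq2 1.42.0 size factors and its Wald test, limma 3.58.1 with voom, no filter, a filter of 1 CPM in 6 libraries, an adjusted p of 0.01, glmTreat against a fold of 1.2, only the groups compared, both hairpins as 1 group, a replicate block, an offset for GC content and exonic length, and each library left out. Deviations of same-numbered libraries correlated between -0.074 and 0.0649, so no shared deviation by replicate number was seen. The labels do not say whether same-numbered libraries were handled together. Within groups, replicates differed by more than counting noise (chi-square per degree of freedom 1.72 or more).

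The members and lists were chosen with earlier results of these data known. Per-library values were given for CHD9, for members with a called average change of 0.3 or more in log2, with hairpins of opposite sign and a called difference, called higher on average, or most or least abundant of their role; of the other lists, the 4 genes with the smallest p were named.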

Additional observations from a re-analysis of the deposited data

Results flagged for a closer look

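The genes here were picked out because the direct contrast of hairpin 1 minus hairpin 2 passed the test (edgeR quasi-likelihood, adjusted p under 0.05). Their RNA levels thus differed between the hairpins, and whether this follows the CHD9 level or the hairpin used was not tested. Values are log2 differences. CHD9 itself differed by -0.28, and by -0.16 with an offset for GC content and exonic length, which ended the call (adjusted p = 0.0883). Of the members, 24 differed, all lower with hairpin 1 (64.9%, against 13.8% of all genes). In the MCM helicase the differences were -0.07 for MCM2, -0.08 for MCM3, -0.07 for MCM4, -0.10 for MCM6 and -0.15 for MCM7. CDC6 differed by -0.13, MCM10 by -0.27, CDC45 by -0.22 and GINS1 by -0.22. Of the polymerases, POLA1 differed by -0.23, POLE2 by -0.20 and POLE3 by -1.18. In the clamp and its loader the values were -0.17 for PCNA, -0.32 for RFC3, -0.18 for RFC4 and -0.15 for RFC5. LIG1 differed by -0.08, RRM1 by -0.11, RRM2 by -0.19, TYMS by -0.10 and CHAF1A by -0.09. CCNE2 differed by -0.38, CLSPN by -0.24 and DTL by -0.09. The calls of MCM2, MCM3, MCM4, MCM6, POLE2, LIG1, CHAF1A and DTL depended on single libraries, as given above. Among the genes named from other lists, TOPBP1 differed by -0.25, DNMT1 by -0.12, CCND1 by 0.06, CENPE by -0.50, HMMR by -0.41, MKI67 by -0.16 and ANLN by -0.32. The CCND1 difference was lost in 7 settings: without a filter, at an adjusted p of 0.01, under glmTreat, with that offset (0.0043, adjusted p = 0.882), and without shCHD9_1 replicate 1 or 2 or shCHD9_2 replicate 2.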

How the results depend on the processing

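Counts of called members varied most with a minimum fold: glmTreat against a fold of 1.2 left 4 lower and 0 higher on average (20 and 2 without it), 9 lower with hairpin 1 (22), 2 lower and 0 higher with hairpin 2 (14 and 5), and 1 lower between the hairpins (24). Calls among all 16855 genes fell as well under glmTreat, to 1000 lower and 1023 higher on average (3921 and 3775 without it). They were 1409 and 1395 with hairpin 1, 608 and 661 with hairpin 2, and 240 and 213 between the hairpins. With the 6 CHD9 libraries as 1 group, 13 members were lower and 0 higher on average, against 2642 lower and 2612 higher among all 16855 genes. Higher calls on average numbered 1 under the DESeq2 Wald test, without a filter and at an adjusted p of 0.01, and with hairpin 2 they numbered 2, 3 and 1 under those settings. Leaving out 1 library gave 1 to 2 higher on average, 1 to 6 higher with hairpin 2, and 0 to 1 higher between the hairpins. The GC and length offset gave 24 members lower on average (20 without it), against 3828 lower among all 16855 genes. It gave 1 higher with hairpin 1 (MCM6). The average of MCM2 went from no call (0.00) to a lower call (-0.0626). The average of RRM1 went from a lower call (-0.06) to no call (0.018). The cause was not tested. For the wider list (40 lower, 10 higher), glmTreat gave 8 and 1, the single group 25 and 5, and the offset 17 higher. For the G2 and mitosis list (11 lower, 6 higher), glmTreat gave 2 and 1, the single group 6 and 3, and the offset 7 lower. The replicate block left 20 members lower and 2 higher on average, and 22 and 0 with hairpin 1. It left 14 and 5 with hairpin 2, and 24 and 0 between the hairpins. The setting of only the groups compared gives no separate average contrast, since it uses every group. With 3 libraries a group and a common biological coefficient of variation of 2.74%, changes under 0.1 in log2 were at the edge of what was called.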
